A study of Mus musculus with 12 samples.

Results

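The chemokine family was followed as the genes whose symbols name a chemokine (Ccl, Cxcl, Cx3cl or Xcl) or a chemokine receptor (Ccr, Cxcr, Cx3cr, Xcr or the atypical Ackr), pseudogenes left out. Among the 21493 genes of the count tables, 60 matched, of which 38 were ligands and 22 were receptors. The libraries held poly-A RNA of cardiomyocyte preparations from hearts of 3-month-old mice. Desmin, the intermediate filament of muscle, was present in Des+/+ and missing in Des-/- mice, and mice of both genotypes had either been put through swimming as an exercise stress (swim) or not (non-swim). There were 3 libraries of each of these 4 groups and 12 in total, and each library pooled cells of several mice, so that a replicate is a pool. Swimming was given in the sample titles alone, since the treatment label repeated the genotype. In the study's methods the names Des+/+ and Des-/- stand for mice that carry a GFP reporter of cardiac myosin. The methods name the background strain on which these mice were bred. They do not state separately that the 3-month-old mice of these libraries came from these lines. The hearts were perfused with trypsin and collagenase D and the cells were harvested directly, and no sort for a cell type is described.

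Chemokines are small secreted proteins that bind to heparan sulphate on endothelium and matrix and draw leukocytes along a gradient. They act on receptors that couple to inhibitory G proteins, and several ligands usually share a receptor. Atypical receptors bind the same ligands without this coupling and remove or transport them. In the heart, resident macrophages, fibroblasts and endothelium are known sources of chemokines, and Ccr2 marks cardiac macrophages that derive from blood monocytes.

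Des fell from 2367 ± 1137 CPM (SD, n = 3) in Des+/+ to 59.5 ± 11.3 (SD, n = 3) in Des-/- non-swim libraries, where CPM expresses a count against all reads of a library after scaling between libraries. Reads in genes ranged from 4320819 to 12072443 per library, and 3 counts, taken as the floor of detection, were worth 0.656 CPM in the shallowest. The cardiomyocyte label was checked with 8 defining markers (such as Myh6 and Tnnt2), all of which were above the floor in every library. Their sum was 50589 to 77678 CPM in Des+/+ non-swim and 10954, 22705 and 4886 CPM in Des-/- non-swim replicates 1 to 3. After swimming it was 25218 to 42915 CPM in Des+/+ and 12744 to 21988 CPM in Des-/-. Without swimming all 8 were lower in Des-/- at an edgeR adjusted p under 0.05, where 18.0% of all genes were. Fibroblast markers (8 genes) summed to 8799, 7815 and 35811 CPM in the same Des-/- non-swim replicates, above the cardiomyocyte sum in replicate 3 alone. Markers of other cell types were measured too. Replicate 3 of the Des-/- non-swim group stood apart from the other libraries, with macrophage markers (12 genes) summing to 4364 CPM against 738 and 454 CPM in replicates 1 and 2 of its group, and replicate 3 of the Des-/- swim group held 1443 CPM against 370 and 276 CPM. For genes named as called between genotypes, values without the first of these libraries (non-swim) or without the second (swim) stand beside those with all libraries. In bulk RNA, more cells of a type and more RNA per cell cannot be told apart.

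Promoter sequences of 5 ligands that were called between genotypes are shown because these ligands belong to classes known to be induced through NF-kB (Cxcl1, Cxcl2), through interferon factors (Cxcl10) or in macrophages (Ccl8, Ccl12). They are read 5′ to 3′ up to the base before the transcription start of the RefSeq model (build GRCm38.p6), and capitals mark each match, on either strand, to GGGA and TTCC parted by any 2 bases (an NF-kB motif), GAAA and GAAA parted by any 2 bases (an interferon response motif) or TATAAA.
Cxcl1, chr5:90891095-90891244, plus strand: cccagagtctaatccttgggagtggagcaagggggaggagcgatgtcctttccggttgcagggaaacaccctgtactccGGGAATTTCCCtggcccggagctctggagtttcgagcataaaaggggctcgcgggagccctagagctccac
Cxcl2, chr5:90903749-90903898, plus strand: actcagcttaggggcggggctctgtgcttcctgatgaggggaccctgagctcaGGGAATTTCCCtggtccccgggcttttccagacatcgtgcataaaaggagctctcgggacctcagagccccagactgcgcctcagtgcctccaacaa
Cxcl10, chr5:92348890-92349139, minus strand: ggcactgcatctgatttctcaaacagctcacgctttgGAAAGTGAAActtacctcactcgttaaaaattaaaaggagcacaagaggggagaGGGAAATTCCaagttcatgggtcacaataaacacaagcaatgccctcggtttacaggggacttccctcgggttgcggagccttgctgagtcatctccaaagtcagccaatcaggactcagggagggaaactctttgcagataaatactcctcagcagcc
Ccl8, chr11:82115035-82115184, plus strand: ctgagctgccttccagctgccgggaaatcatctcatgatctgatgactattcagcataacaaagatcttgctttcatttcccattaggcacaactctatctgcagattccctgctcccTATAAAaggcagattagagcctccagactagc
Ccl12, chr11:82101695-82101844, plus strand: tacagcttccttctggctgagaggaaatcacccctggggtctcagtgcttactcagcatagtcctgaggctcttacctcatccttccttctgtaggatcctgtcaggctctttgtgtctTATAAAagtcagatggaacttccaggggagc
In Cxcl1 and Cxcl2 the capitals cover the palindrome GGGAATTTCCC, where matches on both strands overlap. Cxcl10 held GAAAGTGAAA and GGGAAATTCC, and Ccl8 and Ccl12 each held TATAAA 26 to 32 bases before the start. Of the 32851 promoters in the table, 1.21% held the NF-kB motif, 2.98% the interferon motif and 12.4% TATAAA within 250 bases before the start. Among the members, 46 had at least 1 entry, and 6 of them held the NF-kB motif (Ccl1, Ccr3, Cxcl1, Cxcl2, Cxcl3 and Cxcl10), 3 the interferon motif (Ccl19, Cxcl10 and Cxcl14) and 14 TATAAA. Ccl2, Ccl7 and Cxcl5 had no entry.

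The genes lie in a few clusters (GRCm38, GENCODE M21). Ccl2, Ccl7, Ccl11, Ccl12 and Ccl8 follow each other within 81.2 kb of chromosome 11 (82035571 to 82116799), and Ccl5, Ccl9, Ccl6, Ccl3 and Ccl4 within 138.9 kb further along it (83525778 to 83664683). On chromosome 5, Cxcl5, Cxcl3, Cxcl15, Cxcl1 and Cxcl2 span 146.6 kb (90759360 to 90905938), and Cxcl9 and Cxcl10 span 27.5 kb (92321347 to 92348889). Members of a cluster are related in sequence, and reads that aligned to several places were not counted.

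A filter on low counts kept 33 members (23 ligands and 10 receptors) among 13158 genes tested. Of these, 22 passed in enough libraries of each genotype. Through the Des-/- libraries alone, 10 passed (Ackr1, Ccl3, Ccl4, Ccl5, Ccl8, Ccl12, Ccl24, Ccl27a, Ccr7 and Cxcl5), so that these had to lie on the higher side there, and Ccl28 passed through the Des+/+ libraries alone.

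Per kilobase of exon, so that genes can be compared, Cxcl12, the ligand of Cxcr4 and Ackr3 and a stromal factor, had the highest level of the family at a mean of 136 CPM per kb over the 12 libraries. Ackr3, its scavenging receptor, followed at 41.5, Cxcl14 at 32.6, Cxcl1 at 23.0, Cxcr4 at 17.9, Ccl2 at 17.0, Ccl7 at 15.0, Cxcl16 at 14.9, Cx3cl1 at 11.6 and Ccl6 at 11.5 CPM per kb. For Cxcl1, Ccl2 and Ccl7 the group mean was highest in Des-/- non-swim libraries, at 61.3, 49.9 and 42.5 CPM per kb. In the other groups it was at most 14.1, 7.14 and 8.06 CPM per kb. Cxcl12 supplied 83.5% to 89.5% of the summed ligand CPM in the 6 Des+/+ libraries. Its share was 77.9%, 78.6% and 40.2% in replicates 1 to 3 of Des-/- non-swim and 79.5%, 89.6% and 53.9% in those of Des-/- swim. The sum of the other ligands was 162 to 207 CPM in Des+/+ non-swim libraries and 339, 252 and 1279 CPM in Des-/- non-swim libraries, so that all 3 of the latter were above all 3 of the former. Among receptors, Ackr3 supplied 65.9% to 83.6% of the summed CPM in Des+/+ libraries and 19.5% in replicate 3 of Des-/- non-swim.

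Without swimming, 17 members were higher in Des-/- libraries at an edgeR adjusted p under 0.05, adjusted over all genes tested, where 14.0% of all genes were called higher. They were 13 ligands and 4 receptors. In the other direction 1 member, Ccl28, was called, against 18.0% of all genes called lower. The libraries of the 2 groups did not overlap, with Des-/- higher, for 17 members, where 23.0% of all genes showed this, and 14 of these were among the calls. Among the members without overlap, Ccl3, Ccl4, Ccl5, Ccl8, Ccl12, Ccl24, Ccr7 and Cxcl5 had passed the filter through Des-/- libraries alone. Of the 17 calls, 7 were of genes that passed the filter through Des-/- libraries alone, and 10 were of genes that passed in both genotypes. Replicate 3 of Des-/- non-swim was the highest of all 12 libraries for 16 of the 17. Without that library 4 members were called (Cxcl1, Cxcl5, Cxcl16 and Cx3cr1), all higher, against 6.84% of all genes. Of these 4, Cxcl5 had passed the filter on all libraries through Des-/- libraries alone. The count also fell to 11, 5 and 6 without replicate 1, 2 or 3 of Des+/+ non-swim, and was 16 to 20 without any other library. For these other fits the share of all genes is not given.

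**Figure D1:**
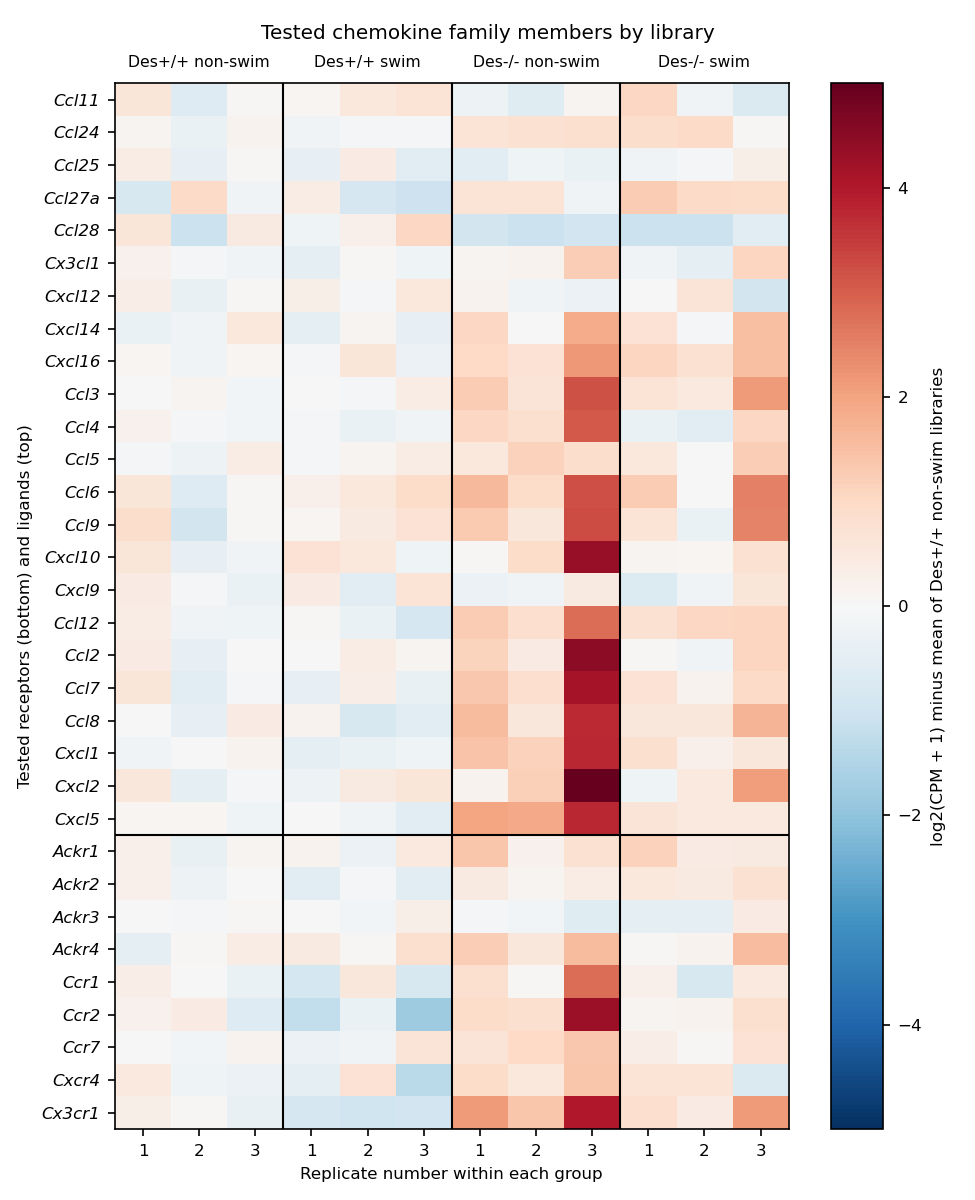
Tested members (32 rows, ligands above and receptors below the line) in each of the 12 libraries, coloured by log2(CPM + 1) minus the mean of the 3 Des+/+ non-swim libraries. The deepest red lies in replicate 3 of Des-/- non-swim, and paler red in replicates 1 and 2 of that group and in replicate 3 of Des-/- swim.

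The monocyte-attracting CC ligands Ccl2, Ccl7, Ccl8 and Ccl12, which are known to attract monocytes and T cells, were all called higher without swimming. Ccl2, the main ligand of Ccr2, was at 8.01, 4.09 and 5.86 CPM in the Des+/+ non-swim libraries (replicates 1 to 3, as in all such lists) and at 13.6, 8.15 and 149 CPM in the Des-/- non-swim libraries. After swimming Ccl2 was at 5.67, 7.92 and 6.40 CPM in Des+/+ and 6.11, 5.03 and 13.2 CPM in Des-/-. The non-swim groups met closely, at 8.01 against 8.15 CPM, and replicate 3 exceeded replicates 1 and 2 by 10.9-fold and 18.2-fold. The log2 difference was 3.25 (SE 0.91, edgeR adjusted p = 0.0192), and 0.87 (adjusted p = 0.164) without that library.

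Ccl7, which shares Ccr2 with Ccl2, was at 6.25, 2.34 and 3.52 CPM in Des+/+ and at 11.1, 7.47 and 83.7 CPM in Des-/- non-swim libraries. After swimming Ccl7 was at 2.60, 5.03 and 2.70 CPM in Des+/+ and 6.83, 4.37 and 8.16 CPM in Des-/-. Without swimming the groups did not overlap, and the difference was 3.08 (SE 0.81, edgeR adjusted p = 0.0145), or 1.21 (adjusted p = 0.0771) without replicate 3. Ccl8, a ligand made chiefly by macrophages, was at 1.18, 0.584 and 1.80 CPM in Des+/+ and at 5.42, 2.15 and 27.6 CPM in Des-/- non-swim libraries. In swim libraries it was at 1.42, 0.214 and 0.427 CPM and at 2.13, 2.19 and 5.85 CPM, again with no overlap of genotypes. Its log2 difference without swimming was 3.27 (SE 0.92, edgeR adjusted p = 0.0196), or 1.65 (adjusted p = 0.126) without replicate 3. Ccl12, a close relative of Ccl2, gave 11, 5 and 6 counts in Des+/+ and 31, 19 and 128 counts in Des-/- non-swim libraries (0.541 to 1.30 CPM against 3.30, 2.15 and 11.2 CPM). In swim libraries it gave 7, 4 and 0 counts in Des+/+ and 14, 12 and 18 counts in Des-/- libraries. Its difference without swimming was 2.78 (SE 0.76, edgeR adjusted p = 0.0175), or 1.76 (adjusted p = 0.0873) without replicate 3. Ccl11 lies between Ccl7 and Ccl12 in the cluster and attracts eosinophils through Ccr3. It was at 2.34 to 7.07 CPM in Des+/+ and 2.49 to 4.81 CPM in Des-/- non-swim libraries, and its difference of -0.36 (SE 0.54, edgeR adjusted p = 0.642) did not pass the test.

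**Figure D2:**
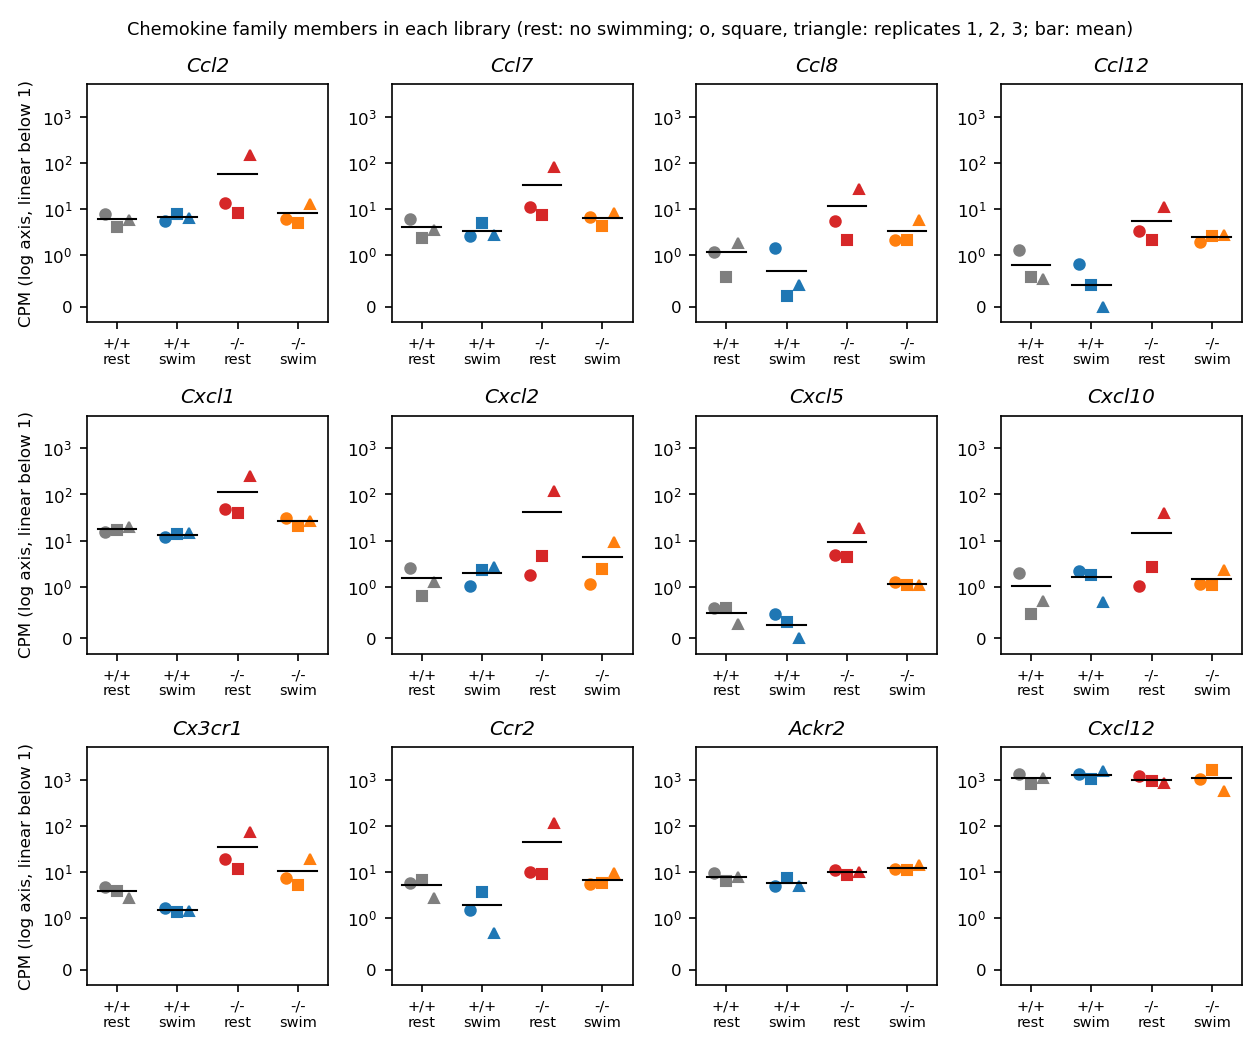
CPM of 12 members in each library (log axis, linear below 1), with symbols for replicates 1 to 3 and a bar for the mean of each group, where rest means no swimming. Replicate 3 (triangle) of Des-/- non-swim lies far above its group for Ccl2, Cxcl2, Cxcl10 and Ccr2, while for Cxcl5, Cxcl1 and Cx3cr1 all 3 libraries of the group lie above all Des+/+ libraries.

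The neutrophil-attracting ligands Cxcl1, Cxcl2 and Cxcl5, which act on Cxcr2, were called higher as well, and for Cxcl1 and Cxcl5 the call held without any single library of the groups compared. Cxcl5, however, had passed the filter through Des-/- libraries alone, so that its direction was set by the filter. Cxcl5 gave 5, 5 and 3 counts in Des+/+ and 45, 39 and 217 counts in Des-/- non-swim libraries, or 0.271 to 0.589 CPM against 4.78, 4.42 and 19.0 CPM. In swim libraries it gave 4, 3 and 0 counts and 9, 5 and 7 counts. All 3 Des-/- non-swim libraries were thus well above every other library, and the log2 difference was 4.28 (SE 0.74, edgeR adjusted p = 0.00190), or 3.25 (adjusted p = 0.00406) without replicate 3. Cxcl1 was at 15.3, 17.4 and 20.2 CPM in Des+/+ and at 49.4, 40.0 and 255 CPM in Des-/- non-swim libraries. After swimming Cxcl1 was at 12.2, 13.7 and 14.8 CPM in Des+/+ and at 31.6, 21.0 and 26.5 CPM in Des-/-, with no overlap of genotypes in either condition. For Cxcl1 the log2 difference without swimming was 2.70 (SE 0.58, edgeR adjusted p = 0.00554), or 1.34 (adjusted p = 0.00230) without replicate 3.

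Cxcl2, whose promoter shares the palindrome with that of Cxcl1, was distributed otherwise. It was at 2.59, 0.818 and 1.26 CPM in Des+/+ and at 1.81, 4.64 and 122 CPM in Des-/- non-swim libraries, so that the groups overlapped and replicate 3 exceeded replicates 1 and 2 by 67.3-fold and 26.2-fold. In swim libraries Cxcl2 was at 1.06, 2.35 and 2.70 CPM in Des+/+ and 1.14, 2.41 and 9.54 CPM in Des-/-. Its difference was 4.78 (SE 1.40, edgeR adjusted p = 0.0232) with all libraries and 1.05 (adjusted p = 0.382) without replicate 3. Cxcr2, the receptor of these ligands, gave at most 24 counts and was not tested. Neutrophil markers (8 genes) summed to 2.44 to 6.25 CPM in Des+/+ non-swim libraries, where Mmp8 was at 0, and to 8.08, 4.64 and 62.2 CPM in Des-/- non-swim libraries. Their part in the level of these ligands was not tested. Transcripts that cells raise during isolation, such as Fos and Atf3 (12 genes), summed to 1667 to 2734 CPM in Des+/+ non-swim and 4885 to 10123 CPM in Des-/- non-swim libraries, and their part was not tested either.

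Of the inflammatory CC ligands, such as Ccl3, 3 of 5 were called higher without swimming. Ccl3 was at 0.943, 1.17 and 0.812 CPM in Des+/+ and at 3.72, 2.04 and 16.8 CPM in Des-/- non-swim libraries. In swim libraries Ccl3 was at 0.945, 0.856 and 1.57 CPM in Des+/+ and at 2.13, 1.75 and 7.54 CPM in Des-/-, so that genotypes did not overlap in either condition. For Ccl3 the log2 difference without swimming was 2.94 (SE 0.80, edgeR adjusted p = 0.0170). Ccl4, its neighbour in the cluster, gave 9, 6 and 7 counts in Des+/+ and 25, 19 and 159 counts in Des-/- non-swim libraries, and 6, 4 and 4 counts against 3, 1 and 17 counts after swimming. Its groups were apart without swimming, with a difference of 2.96 (SE 0.86, edgeR adjusted p = 0.0219), and overlapped after it. Ccl6, a ligand of Ccr1, was at 11.7, 4.32 and 7.67 CPM in Des+/+ and at 24.9, 14.6 and 76.3 CPM in Des-/- non-swim libraries, and at 8.86, 10.9 and 14.7 CPM against 19.1, 7.22 and 47.4 CPM after swimming. For Ccl6 the log2 difference without swimming was 2.29 (SE 0.70, edgeR adjusted p = 0.0276). None of the 3 was called without replicate 3 of Des-/- non-swim, where the differences were 1.57 for Ccl3, 1.59 for Ccl4 and 1.33 for Ccl6 (edgeR adjusted p = 0.0987, 0.136 and 0.135).

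Ccl9, also a ligand of Ccr1, was at 11.4, 2.57 and 5.95 CPM in Des+/+ and at 15.5, 8.95 and 63.6 CPM in Des-/- non-swim libraries, and at 6.14, 8.24 and 10.2 CPM against 9.81, 4.37 and 36.3 CPM after swimming. Its groups overlapped in both conditions, and its difference without swimming was 2.15 (SE 0.84, edgeR adjusted p = 0.0709). Ccl5, a ligand typical of T and NK cells, gave 1, 0 and 6 counts in Des+/+ and 7, 15 and 14 counts in Des-/- non-swim libraries. The groups met at 6 against 7 counts, and its difference of 2.29 (SE 0.89, edgeR adjusted p = 0.0702) missed the threshold. In contrast to the macrophage markers, the summed T and NK cell markers (10 genes) were not highest in replicate 3, at 4.67 to 6.72 CPM in Des+/+ and 9.67, 10.9 and 9.88 CPM in Des-/- non-swim libraries. Of these markers 2 passed the filter. Ccl5 was highest in replicate 2 of that group, at 1.70 CPM against 1.22 CPM in replicate 3. In swim libraries Ccl5 gave 1, 3 and 4 counts in Des+/+ and 5, 1 and 12 counts in Des-/-. Replicate 3 of Des-/- swim was the highest of all 12 libraries for Ccl5, at 1.85 CPM. The T and NK cell sums of Des-/- swim were 6.83, 5.90 and 5.08 CPM, and their part in the level of Ccl5 was not tested.

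Among the interferon-induced ligands, which act on Cxcr3, Cxcl10 was called and Cxcl9 was not. Cxcl10 was at 2.00, 0.467 and 0.722 CPM in Des+/+ and at 1.06, 2.72 and 39.6 CPM in Des-/- non-swim libraries, so that the groups overlapped and replicate 3 stood alone. In swim libraries it was at 2.24, 1.82 and 0.712 CPM in Des+/+ and 1.14, 1.09 and 2.31 CPM in Des-/-. For Cxcl10 the log2 difference without swimming was 3.77 (SE 1.15, edgeR adjusted p = 0.0277), or 0.83 (adjusted p = 0.425) without replicate 3. Cxcl9 was at 26.6, 18.1 and 15.5 CPM in Des+/+ and at 15.8, 17.1 and 27.3 CPM in Des-/- non-swim libraries, with a difference of 0.00 (SE 0.39, edgeR adjusted p = 0.995). Cxcr3 gave at most 21 counts and was not tested.

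Cxcl12, the ligand with the highest level, and its receptors Ackr3 and Cxcr4 did not pass the test in either genotype comparison. Cxcl12 was at 1333, 817 and 1097 CPM in Des+/+ and at 1195, 928 and 859 CPM in Des-/- non-swim libraries, and at 1315, 1023 and 1548 CPM against 1037, 1643 and 558 CPM after swimming. The log2 difference was -0.12 without swimming (SE 0.34, edgeR adjusted p = 0.813) and -0.26 with it (SE 0.34, adjusted p = 0.634), so that a difference of either sign lies within 1 SE. Replicate 3 of Des-/- swim was the lowest of its group for Cxcl12 and the highest for Ackr3. Ackr3 was at 142, 141 and 153 CPM in Des+/+ and at 136, 133 and 96.0 CPM in Des-/- non-swim libraries, where the groups did not overlap, and at 147, 133 and 181 CPM against 103, 104 and 196 CPM after swimming. For Ackr3 the log2 difference without swimming was -0.26 (SE 0.24, edgeR adjusted p = 0.448). Cxcr4, the signalling receptor of Cxcl12, was at 35.2, 21.2 and 19.7 CPM in Des+/+ and at 47.1, 35.9 and 66.3 CPM in Des-/- non-swim libraries, and at 17.5, 41.4 and 9.11 CPM against 39.5, 40.2 and 14.3 CPM after swimming. The non-swim groups met at 35.2 against 35.9 CPM, and the difference of 0.98 (SE 0.51, edgeR adjusted p = 0.163) did not pass.

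Cxcl14, a ligand made by fibroblasts and epithelia, was at 31.4, 34.9 and 57.4 CPM in Des+/+ and at 82.1, 38.7 and 148 CPM in Des-/- non-swim libraries, and at 28.5, 43.5 and 29.6 CPM against 65.7, 38.3 and 116 CPM after swimming. Its difference was 1.12 in non-swim (SE 0.48, edgeR adjusted p = 0.0919) and 1.11 in swim libraries (SE 0.48, adjusted p = 0.143), with overlap in both. Summed fibroblast markers (8 genes) were 3201 to 3659 CPM in Des+/+ non-swim, 7815 to 35811 CPM in Des-/- non-swim, 2204 to 3188 CPM in Des+/+ swim and 3771 to 11683 CPM in Des-/- swim libraries, and their part in the level of Cxcl14 was not tested. Cxcl16, a membrane-bound ligand of Cxcr6 that also takes up oxidised lipoprotein, was at 26.9, 22.1 and 26.7 CPM in Des+/+ and at 50.8, 42.0 and 118 CPM in Des-/- non-swim libraries. In swim libraries it was at 23.9, 38.6 and 20.1 CPM in Des+/+ and at 53.8, 43.3 and 72.5 CPM in Des-/-. Genotypes did not overlap in either condition. For Cxcl16 the log2 difference without swimming was 1.48 (SE 0.37, edgeR adjusted p = 0.0122) and 0.88 (adjusted p = 0.0410) without replicate 3, and after swimming 1.04 (SE 0.37, adjusted p = 0.0902). Cxcr6 gave at most 23 counts and was not tested.

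The remaining tested ligands are low in these preparations. Ccl24, a ligand of Ccr3, gave 6, 2 and 8 counts in Des+/+ and 14, 14 and 19 counts in Des-/- non-swim libraries, and 3, 4 and 3 counts against 13, 9 and 4 counts after swimming. Of the members called higher it was the only 1 for which replicate 3 of Des-/- non-swim was not the highest of the 12 libraries, at 1.66 CPM against 1.49 and 1.59 CPM in replicates 1 and 2. Its difference was 1.47 (SE 0.52, edgeR adjusted p = 0.0479), with no call without any 1 of the 6 non-swim libraries (1.43, adjusted p = 0.115, without replicate 3). Ccl28, a mucosal ligand of Ccr10 and Ccr3, was the member called lower, with 19, 0 and 21 counts in Des+/+ and 1, 0 and 1 counts in Des-/- non-swim libraries. Replicate 2 of Des+/+ non-swim overlapped the Des-/- libraries. The summed 40 against 2 counts gave a ratio of 21.1 at equal depth (95% exact interval 5.47 to 180.2, counting error only), with an edgeR adjusted p of 0.0379 that was lost in 5 of the 6 fits with 1 non-swim library fewer (0.0906 without replicate 3 of Des-/- non-swim). After swimming Ccl28 gave 7, 14 and 23 counts in Des+/+ and 0, 0 and 3 counts in Des-/- libraries, which did not overlap (edgeR adjusted p = 0.110, summed ratio 10.7, interval 3.43 to 53.8). Ccl25 (-0.67, SE 0.50) and Ccl27a (0.40, SE 0.82), which attract T cells to gut and skin, did not pass without swimming (edgeR adjusted p = 0.329 and 0.741). The reads of Ccl27a are uncertain, since near-identical copies of it lie in the genome.

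Of the receptors, Cx3cr1 had the smallest adjusted p in the comparison without swimming. This receptor of fractalkine marks monocytes and resident macrophages. It was at 4.83, 3.97 and 2.71 CPM in Des+/+ and at 19.7, 11.6 and 74.5 CPM in Des-/- non-swim libraries. In swim libraries Cx3cr1 was at 1.65, 1.39 and 1.42 CPM in Des+/+ and 7.54, 5.25 and 19.6 CPM in Des-/-. Every Des-/- library was above every Des+/+ library, across both conditions. The difference without swimming was 3.21 (SE 0.68, edgeR adjusted p = 0.00513), and the call held without any single library of the groups compared (2.04, adjusted p = 0.0125, without replicate 3). Its ligand Cx3cl1, a membrane-bound chemokine of endothelium and neurons, was at 46.1, 37.5 and 35.0 CPM in Des+/+ and at 43.2, 44.1 and 94.0 CPM in Des-/- non-swim libraries, and at 28.5, 41.2 and 33.4 CPM against 34.7, 27.6 and 82.7 CPM after swimming. The groups of Cx3cl1 overlapped in both conditions, and its difference without swimming was 0.61 (SE 0.40, edgeR adjusted p = 0.256).

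Ccr2, the receptor that recruits monocytes, was at 5.89, 6.90 and 2.80 CPM in Des+/+ and at 10.3, 9.29 and 114 CPM in Des-/- non-swim libraries, and at 1.54, 3.64 and 0.712 CPM against 5.55, 5.69 and 9.39 CPM after swimming. Genotypes did not overlap in either condition. For Ccr2 the log2 difference without swimming was 3.11 (SE 0.90, edgeR adjusted p = 0.0222), or 0.93 (adjusted p = 0.226) without replicate 3. Ccr1, a receptor of Ccl3 and Ccl6, was at 2.12, 1.52 and 0.992 CPM in Des+/+ and at 3.40, 1.59 and 16.4 CPM in Des-/- non-swim libraries, and at 0.354, 2.68 and 0.427 CPM against 1.99, 0.437 and 2.46 CPM after swimming. Its difference of 2.21 (SE 0.92, edgeR adjusted p = 0.0846) did not pass. Ccr7, which guides dendritic cells and T cells to lymph nodes, gave 3, 2 and 6 counts in Des+/+ and 11, 15 and 28 counts in Des-/- non-swim libraries, and 1, 2 and 8 counts against 5, 2 and 8 counts after swimming. Its non-swim groups did not overlap, and the difference was 2.17 (SE 0.70, edgeR adjusted p = 0.0342), or 1.85 (adjusted p = 0.110) without replicate 3.

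The 4 atypical receptors were all tested, and none was called by edgeR without swimming. Ackr4, which scavenges the ligands of Ccr7, gave 45, 68 and 111 counts in Des+/+ and 177, 102 and 279 counts in Des-/- non-swim libraries, where the CPM did not overlap (1.23, SE 0.44, edgeR adjusted p = 0.0534). Ackr1, which carries chemokines across venules, was at 0.351 to 1.06 CPM and 1.02 to 3.51 CPM (1.46, SE 0.61, edgeR adjusted p = 0.0875). Ackr2, the scavenger of inflammatory CC ligands, was at 9.66, 6.43 and 7.76 CPM in Des+/+ and at 11.2, 8.83 and 10.3 CPM in Des-/- non-swim libraries (0.35, SE 0.24, edgeR adjusted p = 0.301).

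Leukocyte markers were measured in the same libraries. Macrophage markers summed to 258 to 376 CPM in Des+/+ and 454 to 4364 CPM in Des-/- non-swim libraries, and monocyte markers (4 genes) to 2.44 to 5.66 CPM and to 5.21, 6.34 and 68.7 CPM. In swim libraries the macrophage sum was 305 to 360 CPM in Des+/+ and 276 to 1443 CPM in Des-/-, and the monocyte sum 2.70 to 8.03 CPM and 3.39 to 3.98 CPM. After swimming the macrophage sums of the genotypes thus overlapped, and the monocyte sums of Des-/- lay within the range of Des+/+ libraries. The monocyte sums are near the floor, as 1 of the 4 genes was above 3 counts in every Des-/- swim library. The median log2 difference of the 12 macrophage markers after swimming was 1.15, with 0 called. Replicate 3 of Des-/- non-swim was the highest library in both lists but not for B cell markers, and replicate 3 of Des-/- swim was the highest swim library in macrophage but not in monocyte markers. None of the 12 macrophage markers was at 0 in any group. In non-swim libraries the summed markers of the other lists were, for Des+/+ and then Des-/-, at most 2.69 and at most 8.83 CPM for B cells (4 genes), 61.8 to 88.5 and 95.8 to 174 CPM for dendritic cells (5 genes), 5365 to 6554 and 4511 to 6687 CPM for endothelium (9 genes), 3692 to 5314 and 2855 to 3552 CPM for mural cells (7 genes), and 179 to 546 and 1470 to 4579 CPM for erythrocytes (5 genes). The part of these cells in the levels of chemokines and receptors was not tested.

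**Figure D3:**
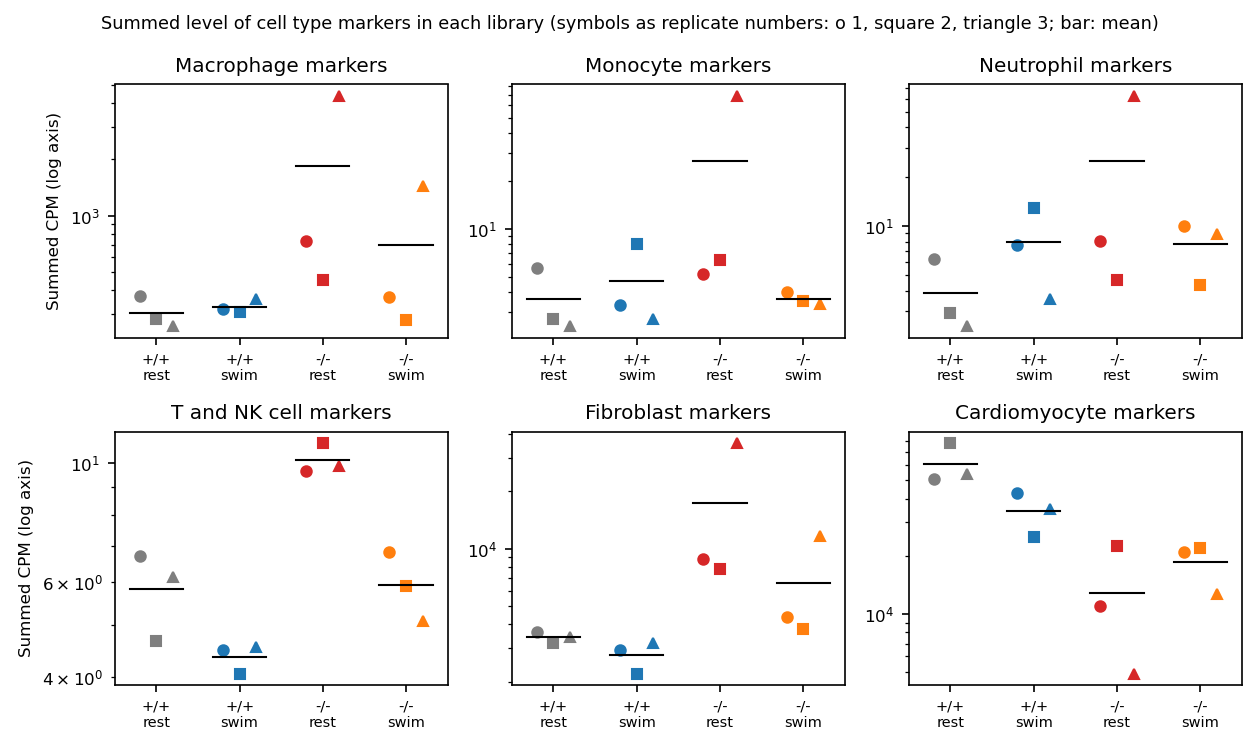
Summed CPM of marker genes of 6 cell types in each library (log axes), with symbols for replicates 1 to 3 and a bar for the mean of each group. Replicate 3 of Des-/- non-swim is highest for macrophage, monocyte, neutrophil and fibroblast markers and lowest for cardiomyocyte markers, but not highest for T and NK cell markers.

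**Figure D4:**
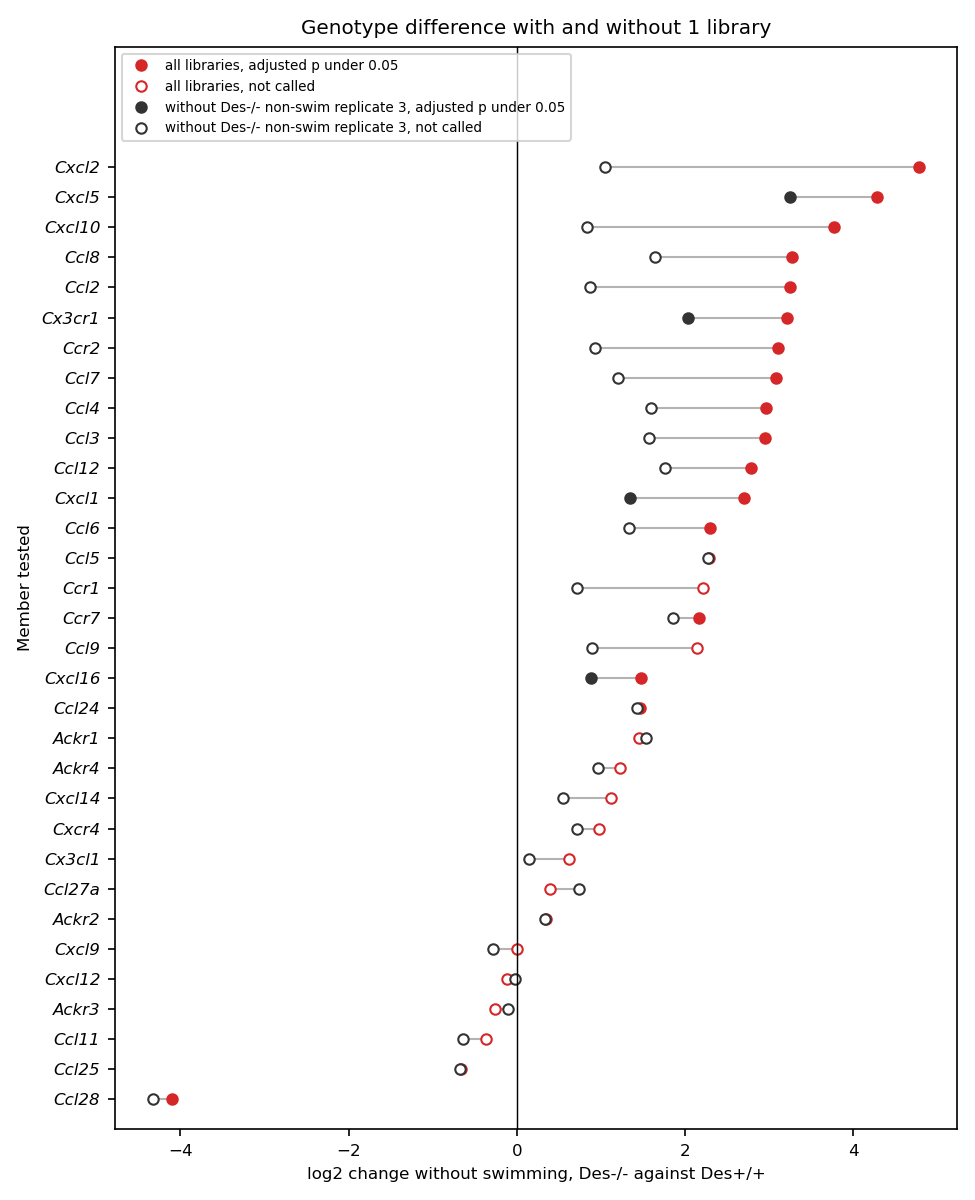
The log2 difference between genotypes without swimming for 32 tested members, with all 12 libraries (red) and without replicate 3 of Des-/- non-swim (black), filled where the edgeR adjusted p was under 0.05. Most differences shrank, the filled points fell from 17 to 4, and 26 of 32 differences were above 0 in the fit without the library.

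After swimming, 2 members were higher in Des-/- libraries, Cx3cr1 and Ackr2, where 5.01% of all genes were called higher, and 0 members were lower, where 5.57% of all genes were. The groups did not overlap, with Des-/- higher, for 11 members, where 17.3% of all genes showed this. Cx3cr1, with the levels given above, had a difference of 2.85 (SE 0.73, edgeR adjusted p = 0.0334), and the call was kept in 1 of the 6 fits with 1 swim library fewer (2.10, adjusted p = 0.102, without replicate 3 of Des-/- swim). Ackr2 was at 4.96, 7.60 and 4.98 CPM in Des+/+ and at 11.7, 11.2 and 14.2 CPM in Des-/- swim libraries, so that all 3 Des-/- libraries were above all 3 others. Its difference was 1.07 (SE 0.25, edgeR adjusted p = 0.0251), called in 2 of the 6 fits (0.96, adjusted p = 0.0683, without replicate 3 of Des-/- swim), and unlike most members it was not set apart by replicate 3. The smallest library, replicate 2 of Des-/- swim, gave 51 counts of Ackr2. Of the 11 members whose libraries were apart, Ccl8 (2.29, SE 0.99), Ccl12 (2.46, SE 0.85), Cxcl5 (2.00, SE 0.86), Ccl24 (1.82, SE 0.57) and Ccl27a (2.18, SE 0.88) were not called, with edgeR adjusted p of 0.146, 0.0806, 0.141, 0.0598 and 0.122. These genes, and Ccl3 among the 11, had passed the filter through Des-/- libraries alone, so that their direction was set by the filter. Ccl2 (0.30, SE 0.91) and Cxcl10 (-0.07, SE 1.18) had an edgeR adjusted p of 0.847 and 0.970. The count was 0 without replicate 1 or 3 of Des+/+ swim or replicate 1 of Des-/- swim, 1 without replicate 2 of Des+/+ swim or replicate 3 of Des-/- swim, and 6 without replicate 3 of Des-/- non-swim, which enters the shared estimate of spread.

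**Figure D5:**
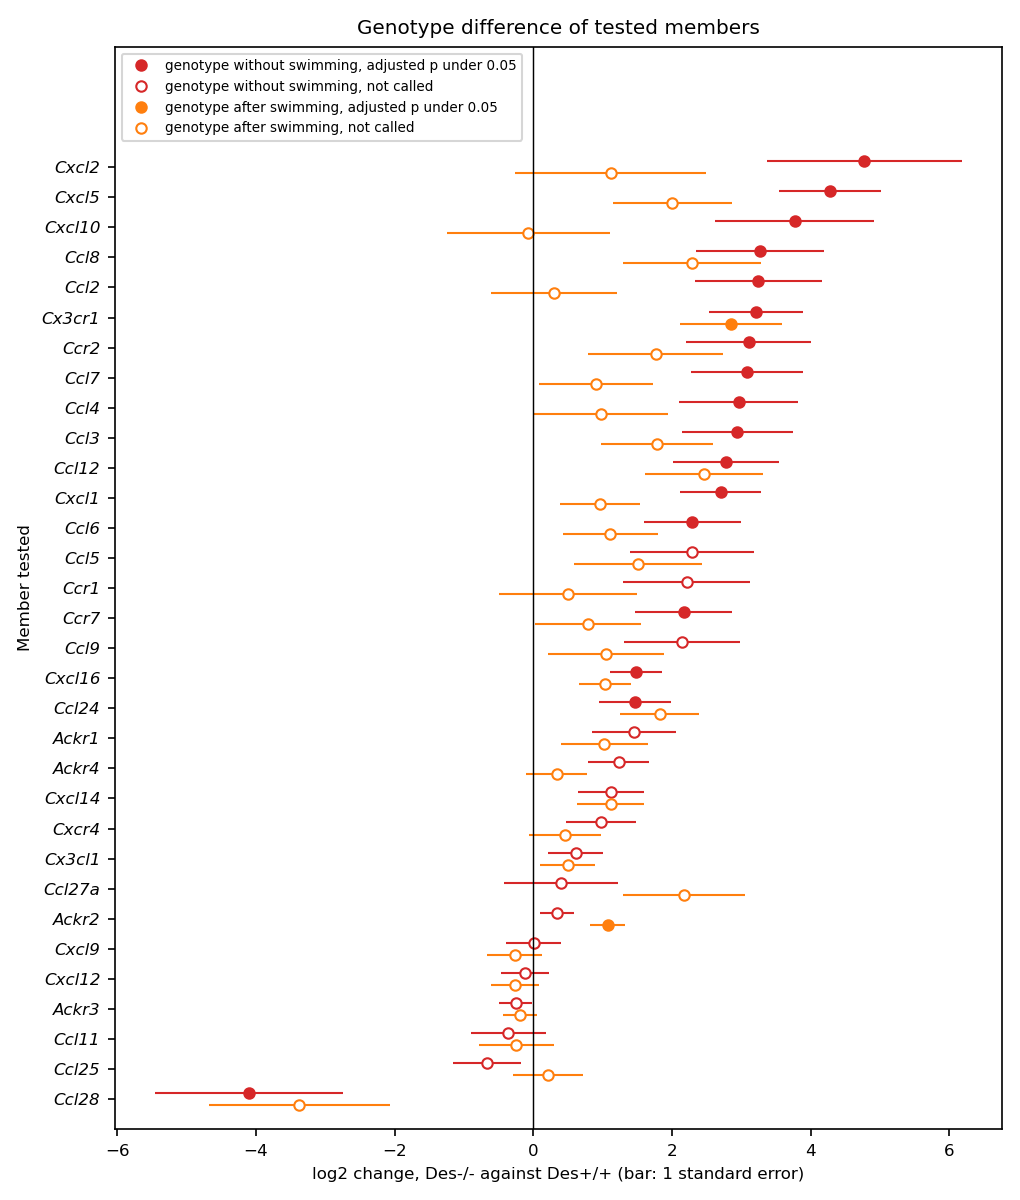
The log2 difference between genotypes for 32 tested members without swimming (red) and after swimming (orange), with bars of 1 standard error and filled points at an edgeR adjusted p under 0.05. Without swimming 17 points are filled, and after swimming those of Cx3cr1 and Ackr2.

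For swimming itself edgeR called no member in either genotype at an adjusted p under 0.05, and DESeq2 called 3 members in Des-/- libraries. In Des+/+ libraries edgeR called 0 members, where 0.0912% of all genes were called, 0 members had an unadjusted p under 0.05, where 20.5% of all genes did, and DESeq2 called 0, where it called 6.06% of all genes. The non-swim libraries are also those of the genotype comparison, so these values are given by themselves. Cx3cr1 was lower in all 3 swim libraries (1.39 to 1.65 against 2.71 to 4.83 CPM), with a difference of -1.35 (SE 0.74, edgeR adjusted p = 0.321), and Cxcl1 was lower in all 3 as well (-0.38, SE 0.57, adjusted p = 0.742).

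In Des-/- libraries edgeR called 0 members after swimming, where 0.0228% of all genes were called, while 11 members had an unadjusted p under 0.05, all of them lower after swimming, where 16.7% of all genes had such a p. DESeq2 called 3, Cxcl1, Cxcl5 and Ccl7, all lower, where it called 2.58% of all genes. Cxcl5 was at 4.78, 4.42 and 19.0 CPM without and 1.28, 1.09 and 1.08 CPM after swimming, with no overlap and a difference of -3.01 (SE 0.69, edgeR adjusted p = 0.176, DESeq2 adjusted p = 0.00637). Cxcl1 was at 40.0 to 255 CPM without and 21.0 to 31.6 CPM after swimming (-2.12, SE 0.57, edgeR adjusted p = 0.187, DESeq2 adjusted p = 0.0123). For Ccl7 the groups overlapped (-2.39, SE 0.79, edgeR adjusted p = 0.208, DESeq2 adjusted p = 0.0472). Ccl2 (-2.79, SE 0.90) and Cxcl10 (-3.24, SE 1.14) had edgeR adjusted p of 0.203 and 0.226, with overlapping groups. Without replicate 3 of Des-/- non-swim the differences were -1.97 for Cxcl5, -0.75 for Cxcl1, -0.51 for Ccl7, -0.41 for Ccl2 and -0.29 for Cxcl10 (edgeR adjusted p = 0.436, 0.386, 0.736, 0.781 and 0.924). The swimming libraries of this genotype were also the shallowest, at 4320819 to 6521963 reads in genes.

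The interaction, which asks if the response to swimming depended on genotype, called 0 members and 0% of all genes with edgeR. With an unadjusted p under 0.05 there were 2 members, Cxcl10 (-3.84, SE 1.63, edgeR adjusted p = 0.277) and Ccl2 (-2.95, SE 1.26, adjusted p = 0.282), or -0.91 and -0.58 without replicate 3 of Des-/- non-swim, where 16.3% of all genes had such a p, and DESeq2 called 0 members, where it called 2.27% of all genes. The smaller number of members called between genotypes after swimming than without it is therefore not a difference that this test shows.

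Genes that transmit, limit or induce chemokine signals were counted from a list of 57, of which 54 were tested. Without swimming 24 of the 54 were higher in Des-/- libraries, where 14.0% of all genes were called higher, and 1 was lower (Grk3, a receptor kinase, named after its value was seen), where 18.0% of all genes were. Without replicate 3 of Des-/- non-swim 8 were higher, where 6.84% of all genes were. Grk3 alone was lower in that fit, where 1895 of 13296 genes were (-0.70 with and -0.94 without the library, edgeR adjusted p = 0.0150 and 0.00348). The count of higher genes also went to 12, 10 and 9 without replicate 1, 2 or 3 of Des+/+ non-swim, given without the share of all genes. After swimming 3 of 54 were higher, a share close to the 5.01% of all genes called higher, and 0 were lower, where 5.57% of all genes were. These 3 were Arrb1, Arrb2 and Zfp36 (named after their values were seen), and 0 were called without any 1 of the swim libraries, except replicate 2 of Des-/- swim (1 called). By role, 10 of 15 G proteins and effectors, 8 of 16 tested inducers, 5 of 10 desensitising genes, 1 of 4 chemokines with other names (Pf4) and 0 of 8 processing genes were higher without swimming, to be read against the same 14.0%.

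The partner genes with the smallest p were called with and without replicate 3 of Des-/- non-swim, which was the highest non-swim library for each of them but Elmo1. Nfkbiz, a nuclear co-factor of NF-kB, was at 19.7, 20.8 and 29.1 CPM in Des+/+ and at 80.5, 75.0 and 330.1 CPM in Des-/- non-swim libraries. Its log2 difference was 2.80 (SE 0.57, edgeR adjusted p = 0.00439), or 1.74 (adjusted p = 0.00644) without that library. Tlr2, which senses bacterial lipoproteins, was at 10.4, 13.2 and 10.5 CPM in Des+/+ and at 24.4, 20.6 and 79.9 CPM in Des-/- non-swim libraries (log2 1.88, SE 0.42, edgeR adjusted p = 0.00672), with a difference of 1.00 (adjusted p = 0.00406) without it. Arrb2, an arrestin that uncouples and internalises receptors, was at 21.9, 21.4 and 20.8 CPM in Des+/+ and at 44.1, 38.0 and 130.6 CPM in Des-/- non-swim libraries. Its log2 difference was 1.73 (SE 0.41, edgeR adjusted p = 0.00895), or 0.95 (adjusted p = 0.0144) without that library. In swim libraries it was 1.46 (SE 0.41, edgeR adjusted p = 0.0448), and 1.14 (adjusted p = 0.126) without replicate 3 of Des-/- swim. For the other genes called after swimming, the log2 difference was 0.71 for Arrb1 (edgeR adjusted p = 0.0355) and 1.28 for Zfp36 (adjusted p = 0.0482), or 0.79 (adjusted p = 0.0525) and 0.86 (adjusted p = 0.147) without that swim library. Pf4, a platelet and macrophage chemokine, was at 14.0, 8.30 and 11.6 CPM in Des+/+ and at 24.1, 23.9 and 50.7 CPM in Des-/- non-swim libraries (log2 1.54, SE 0.37, edgeR adjusted p = 0.00916), with 1.09 (adjusted p = 0.0321) without replicate 3. Elmo1, which links receptors to Rac, was at 37.0, 32.7 and 41.1 CPM in Des+/+ and at 53.7, 54.4 and 52.1 CPM in Des-/- non-swim libraries (log2 0.53, SE 0.13, edgeR adjusted p = 0.00962), with 0.55 (adjusted p = 0.0208) without it. The groups of these 5 genes did not overlap without swimming.

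The 27 members that did not pass the filter are accounted for by their highest count in any library. Ccl21a reached 50, Cxcr2 24, Cxcr6 23, Ccl22 and Cxcr3 21, Cxcl3 20 and Ccr9 11. Ccl17, Ccl19, Cxcl13, Ccr4, Ccr6 and Cxcr5 reached 4 to 9 counts. Ccl1, Cxcl15, Cxcl17, Xcl1, Ccr3, Ccr8, Ccr10 and Ccr1l1 reached 1 to 3 counts, at or under the floor. Ccl20, Ccl26, Ccl27b, Ccl21b, Ccl21d and Cxcr1 were at 0 counts in all 12 libraries. The Ccl21 genes are near-identical copies, so that the reads of each are uncertain.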

How the data were processed

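Poly-A RNA of cardiomyocyte preparations was sequenced in 12 libraries, and groups and replicate numbers were taken from the sample titles. The files deposited by the authors hold raw, unscaled read counts for each gene. Per the labels and the study's methods, the authors aligned single-end reads to GRCm38 with HISAT2 2.2.1, sorted them with SAMtools 1.13 and counted them with HTSeq in its reverse-strand mode. The annotation used was not given in the sources used here. The labels name a TruSeq kit and the methods a directional one, so that overlapping genes on opposite strands are uncertain. Rows that name no gene were left out: 34.0% to 64.5% of the uniquely aligned reads of a library lay in no gene. This share differed by group, at 34.0% to 39.3% in Des+/+ non-swim, 45.9% to 50.4% in Des+/+ swim and 57.2% to 64.5% in Des-/- swim libraries. In replicates 1 to 3 of Des-/- non-swim it was 52.3%, 49.0% and 34.2%. Of the gene identifiers, 21488 matched GENCODE M21, from which positions and exon lengths were taken.

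The counts entered edgeR 4.0.16 in R 4.3.3 (filterByExpr, TMM scaling, quasi-likelihood tests) in a fit of 4 group means to all 12 libraries with 8 residual degrees of freedom. P-values were adjusted over all 13158 genes by Benjamini and Hochberg, and calls were made at an adjusted p under 0.05. SE are the log2 difference over the root of the F statistic. CPM per kb are CPM over exon length. DESeq2, which the study used in version 1.40.2, was run in version 1.42.0 as an alternative. Other scalings, no filter, 6 libraries alone, a replicate block, other thresholds and leaving out each library were further alternatives. The procedure was tested on simulated counts. The intervals cover counting error only, and p-values measure the spread between pools. A comparison of 3 libraries with 3 allows no exact p under 0.1.

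Replicate numbers could pair libraries. Deviations from group means of libraries with the same number correlated at 0.365, 0.316 and 0.602 across genes for swimming in Des-/- libraries. In the other comparisons they correlated at 0.134 at most. Replicates 1 and 2 of Des-/- also correlated across different numbers, at 0.299 and 0.292. Replicate 3 correlated with replicates 1 and 2 of the other Des-/- group at -0.470 to -0.414. The main fit did not pair libraries, and the replicate block was run as an alternative.

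The members, role lists, partner list and marker lists were chosen with earlier results of these data known. Values per library are given for each member called in at least 1 of 5 contrasts, the 5 tested members with the highest level per kb that were not called, and tested receptors or ligands whose main partner was called. Of the partner list, the 6 with the smallest p in a genotype comparison were chosen. Some genes that these rules choose are not reported here by name or plotted, though the counts include them. Promoters are RefSeq's (GRCm38.p6), and the 5 printed were checked to continue into a transcript of their gene.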

Additional observations from a re-analysis of the deposited data

How the results depend on the processing

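For genotype without swimming the count of members called, 18 in the report, was 19 with DESeq2 size factors, with upper-quartile scaling, with no filter, with DESeq2's Wald test and with the filter of the study's methods (p not adjusted), 24 at an adjusted p under 0.1, and 11 when only the 6 libraries compared were fitted. It ranged from 4 to 20 when each library was left out in turn, and was 8 without replicate 3 of both Des-/- groups, a setting chosen after the data were seen. After swimming the count of 2 became 4 with DESeq2, 5 at an adjusted p under 0.1, 8 under the study's filter, 0 to 6 leaving out each library, and 4 (3 higher and 1 lower) without both replicates 3. For swimming in Des-/- libraries it went from 0 to 3 with DESeq2 and 11 under the study's filter, and for the interaction from 0 to 2 under that filter. For swimming in Des+/+ libraries it was 0 under every alternative run. With the replicate block the counts were 16 without swimming, 2 after it and 0 for the other comparisons, among them swimming in Des-/- libraries. Libraries of the same replicate were not known to share more than a number. The count of partner genes called, 25 without and 3 after swimming, ranged from 9 to 30 and from 0 to 9 leaving out each library, and was 17 and 8 without both replicates 3 (settings chosen after the data were seen). Of the 20 member calls in the genotype comparisons, 20 kept direction and threshold under both scalings, 19 with no filter, 17 with DESeq2 (which gives no adjusted p for 2 of them), 15 with the block and 11 with the 6 libraries alone, where 8 lost the call. None reversed. Members under about 10 counts in each library of a group are limited by depth. The counts in this section stand without the share of all genes called in the same setting. They show how far the count moved, not whether members exceeded that share.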
